A study of Mus musculus with 6 samples.

Results

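The genes described here encode 10 enzymes and chaperones that act on procollagen inside the endoplasmic reticulum. They were taken by symbol from the deposited gene table, and all 10 were found among its 49492 symbols and passed the filter on low counts, which kept 19284 genes. P4ha1, P4ha2, P4ha3 and P4hb encode the subunits of collagen prolyl 4-hydroxylase, Plod1, Plod2 and Plod3 the lysyl hydroxylases, Serpinh1 the collagen chaperone HSP47, Crtap a subunit of the prolyl 3-hydroxylase complex, and Fkbp10 the prolyl isomerase FKBP65. Poly(A) RNA was sequenced from palatal shelves, the embryonic outgrowths that join to form the palate, taken at E14.5 from C57BL mice. Of 6 libraries, the 3 controls are Prmt1 fl/fl (both copies carry loxP sites, no Cre) and the 3 of the deletion group are Wnt1-Cre; Prmt1 fl/fl. Wnt1-Cre acts in the neural crest lineage, which supplies most palatal mesenchyme, so the epithelium, muscle, vessel and blood cells in the same shelves lie largely outside the cells it targets. No library has Cre without the floxed alleles, and the labels do not state whether each library is a separate embryo, so p-values cover only the spread between these libraries.

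Procollagen chains are modified while they are still unfolded. Prolyl 4-hydroxylase, a tetramer of alpha subunits and of P4hb (protein disulfide isomerase), makes the 4-hydroxyproline that keeps the triple helix stable at body temperature. Lysyl hydroxylases prepare the sites for sugars and for extracellular crosslinks, and HSP47 and FKBP65 accompany the folded molecule towards export. Loss of several of these genes causes brittle bone disease, and osteoblasts and fibroblasts are the cells best known for high levels of them.

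Each library held 44919889 to 50022829 estimated counts, and levels are given as CPM, counts scaled to library size with TMM factors. The targeted gene Prmt1 was at 257.9, 249.7 and 246.3 CPM in controls 212, 213 and 220 and at 200.9, 205.5 and 217.3 CPM in deletion libraries 208, 211 and 221, the numbers being those in the column names (-0.27 ± 0.05 in log2, edgeR adjusted p = 0.0113), and Prmt1 did not pass when 213, 208 or 211 was left out (edgeR adjusted p = 0.0674, 0.0638 and 0.0567) or under the sex covariate (-0.24, edgeR adjusted p = 0.177). Palatal mesenchyme markers (Osr2, Prrx1, Twist1, Pdgfra, Shox2 and Msx1) were all detected, with summed levels of 1771 to 1975 CPM in controls and 1902 to 2011 CPM in deletion libraries. Levels of Xist, which coats the inactive X, were 15.5 and 16.0 CPM for controls 212 and 213 and 3384 to 4487 CPM for the other 4 libraries, so 2 of the 3 controls differ in sex from every deletion library. Marker levels differed between the groups as well. Summed over each fixed list, 11 osteoblast markers were at 1022 to 1448 CPM in controls and 268 to 481 CPM in deletion libraries (2 of 9 tested fell by edgeR, 6 by limma voom and 8 by the DESeq2 Wald test, median -1.81 in log2), and 10 chondrocyte markers were at 85.8 to 132.6 and 213 to 270 CPM (7 rose). Skeletal muscle markers (10) were at 525 to 579 and 914 to 1510 CPM (6 rose), and epithelial markers (10) at 1470 to 1686 and 944 to 1191 CPM (6 fell). No marker on these lists was at 0 in all 6 libraries. In bulk tissue, fewer cells of a type and less RNA per cell cannot be told apart, and the part of these shifts in the values below was not tested.

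None of the 10 genes passed the test in the full comparison (quasi-likelihood F test of edgeR, p-values adjusted over all tested genes by Benjamini-Hochberg, threshold 0.05), where 7.01% of tested genes were called, 3.65% higher and 3.37% lower. The adjusted p-values ran from 0.0520 to 0.886. The DESeq2 Wald test called 3 of the 10 (P4ha1, P4ha3 and Fkbp10) against 11% of all genes, and limma voom called 0. Log2 fold changes, always deletion minus control, lay between -0.26 and 0.12 with a median of -0.12, against a median of -0.0001 over all tested genes, and 9 of the 10 were below 0. At an unadjusted p under 0.05 there were 5 members, all with lower means in the deletion libraries, against 22.5% of tested genes at that level in either direction and 11.3% lower. In 4 members every deletion library lay below every control, which 13.5% of tested genes also showed. Groups that did not overlap in either direction made up 27.5% of tested genes, including the 14.1% that were higher. The lowest values were those of the alpha subunits and Fkbp10 (-0.26 to -0.23), followed by Serpinh1 (-0.14) and Crtap (-0.11), and P4hb and the lysyl hydroxylases lay between -0.03 and 0.12. Differences between these values were not tested, and the order changed with sex as a covariate (P4ha1 -0.10, P4ha2 -0.04).

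**Figure D1:**
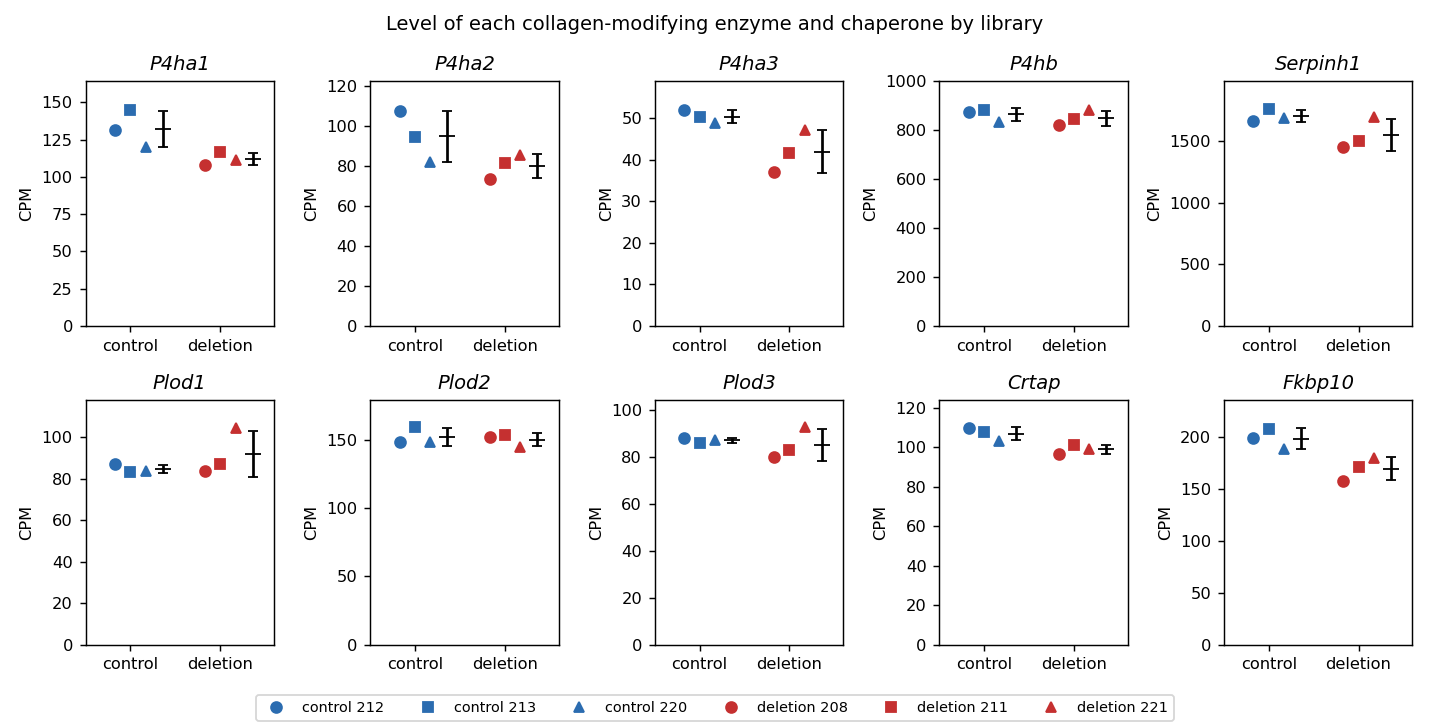
CPM of the 10 genes, 1 point per library, with axes from 0. Blue marks the 3 controls and red the 3 deletion libraries, and black bars give mean and SD. P4ha1, P4ha3, Crtap and Fkbp10 have all deletion points below all control points, and the other 6 genes overlap.

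The alpha subunits carry the catalytic site of prolyl 4-hydroxylase, and each pairs with P4hb. Their promoters are shown because the 3 alpha subunit genes had log2 fold changes of -0.24, -0.24 and -0.26 and P4hb, in the same enzyme, one of -0.03. None of these genes passed in the full comparison, and a link between promoter letters and these values was not tested. Each sequence is the 250 bases before the RefSeq transcription start in GRCm38.p6, written 5′ to 3′ on the gene's strand, and the P4ha2 window lies inside the longer GENCODE gene span. The windows are chr10:59323046-59323295 (plus strand), chr11:54100674-54100923 (plus), chr7:100285270-100285519 (plus) and chr11:120573254-120573503 (minus). Capitals mark GGGCGG (the GC box), ACGTG (a form of the core of the hypoxia response element), CCAAT and TATAAA, on either strand. Other forms of that core were not searched for.

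P4ha1: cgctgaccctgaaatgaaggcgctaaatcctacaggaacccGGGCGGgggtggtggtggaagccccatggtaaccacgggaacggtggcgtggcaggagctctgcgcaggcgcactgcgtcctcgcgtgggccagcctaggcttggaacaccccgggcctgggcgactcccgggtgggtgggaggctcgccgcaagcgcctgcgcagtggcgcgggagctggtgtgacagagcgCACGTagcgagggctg

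P4ha2: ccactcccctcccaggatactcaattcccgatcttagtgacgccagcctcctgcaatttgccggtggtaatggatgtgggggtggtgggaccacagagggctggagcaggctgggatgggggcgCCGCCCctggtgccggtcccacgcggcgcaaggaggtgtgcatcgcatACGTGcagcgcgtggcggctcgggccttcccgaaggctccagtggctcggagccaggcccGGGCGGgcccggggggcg

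P4ha3: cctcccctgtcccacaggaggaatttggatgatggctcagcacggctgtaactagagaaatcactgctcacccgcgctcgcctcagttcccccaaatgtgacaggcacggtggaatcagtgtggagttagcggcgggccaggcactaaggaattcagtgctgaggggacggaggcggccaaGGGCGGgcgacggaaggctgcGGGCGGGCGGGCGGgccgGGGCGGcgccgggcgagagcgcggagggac

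P4hb: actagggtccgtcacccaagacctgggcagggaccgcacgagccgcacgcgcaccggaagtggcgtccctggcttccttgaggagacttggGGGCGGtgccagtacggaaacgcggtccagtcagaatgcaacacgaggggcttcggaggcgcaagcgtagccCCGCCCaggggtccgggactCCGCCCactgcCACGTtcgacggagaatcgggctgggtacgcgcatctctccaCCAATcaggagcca

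ACGTG stood 16 bases before the start in P4ha1, 78 in P4ha2 and 56 in P4hb, and P4ha3 held 5 GGGCGG matches, some overlapping, and no ACGTG in this window. Of the 8 members with a RefSeq promoter in the table (Plod2 and Fkbp10 were not among them), 5 held ACGTG, against 16.57% of 32817 promoter windows of the same length. The GC box was in 6 of the 8 and in 32.72% of all windows, CCAAT in 2 of 8 and 33.83%, and TATAAA in 2 of 8 and 12.37%. The 8 windows had 53.6% to 70.0% G and C, where the median of all windows was 52.4% and the upper quartile 61.2%. The shares over all windows were not matched for G and C, so they cannot show an excess of a motif, and a match describes letters only.

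P4ha1 (chromosome 10, 59323296 to 59373304, mm10, plus strand) encodes the alpha subunit found in most tissues. It measured 131.5, 144.9 and 120.3 CPM in controls and 108.3, 116.4 and 111.3 CPM in deletion libraries. The groups did not overlap, and control 220 was nearest to the deletion range. The log2 fold change was -0.24 ± 0.07 (SE, n = 3 libraries per group here and below; edgeR adjusted p = 0.0565). With 1 library left out it ran from -0.30 (without control 220, edgeR adjusted p = 0.0199) to -0.17 (without control 213, edgeR adjusted p = 0.246). It passed by the DESeq2 Wald test (adjusted p = 0.0214), and with sex as a covariate it was -0.10 (edgeR adjusted p = 0.614).

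P4ha2 (chromosome 11, 54100095 to 54131665, plus strand), the alpha subunit known from chondrocytes and osteoblasts, was at 107.4, 94.4 and 81.9 CPM in controls and 73.3, 81.4 and 85.1 CPM in deletion libraries. Control 220 lay inside the deletion range. The difference of -0.24 ± 0.10 had an edgeR adjusted p of 0.179. Without control 220 it was -0.34 and passed (edgeR adjusted p = 0.0324), and without control 212 it was -0.14 (edgeR adjusted p = 0.392). With sex as a covariate it was -0.04.

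P4ha3 (chromosome 7, 100285520 to 100319699, plus strand) encodes the third alpha subunit. Controls were at 51.9, 50.4 and 48.8 CPM and deletion libraries at 37.1, 41.7 and 47.2 CPM. Every deletion library was lower, 221 by the least. The difference was -0.26 ± 0.08 on the log2 scale (edgeR adjusted p = 0.0845). Without deletion 221 it was -0.35 and passed (edgeR adjusted p = 0.0111), and without deletion 208 it was -0.18 (edgeR adjusted p = 0.280). With sex as a covariate it was -0.22 (edgeR adjusted p = 0.451).

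P4hb (chromosome 11, 120560298 to 120573253, minus strand) serves both as the beta subunit and as a free oxidoreductase for many secreted proteins. It was at 873, 884 and 835 CPM in controls and 819, 844 and 881 CPM in deletion libraries, which overlap throughout. The log2 fold change was -0.03 with a 95% interval of -0.15 to 0.10 (edgeR adjusted p = 0.834).

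The level of P4hb was also set against that of its partners. Per kilobase of exon, there were 4.64, 4.65 and 5.04 P4hb transcripts for each alpha subunit transcript of any kind in controls and 5.74, 5.40 and 5.52 in deletion libraries. All 3 deletion ratios were above all 3 control ratios (means 4.78 ± 0.22 and 5.55 ± 0.17, SD). The two-sided exact permutation p of 0.1 is the smallest that 3 against 3 can give, and this ratio was chosen after the values were seen (adjusted over 18 ratios and shares, p = 0.225). Among the alpha subunits the makeup was alike: P4ha1 held 50.7% ± 2.2 of alpha transcripts in controls and 51.0% ± 2.2 in deletion libraries, and P4ha2 23.9% ± 2.0 and 24.0% ± 0.5 (SD). P4ha3 held 24.2% to 26.9% and 23.7% to 27.0%. The exact permutation p for the P4ha2 share was 1. These shares depend on the gene models, and with the longest transcript as length the P4ha2 share in controls was 36.5% ± 2.5. The ratio of P4hb to alpha subunits depends on the gene models too. Its deletion minus control difference was 0.58 with the longest transcript as length and 0.78 with the union of exons. The exact permutation p was 0.1 for both.

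The lysyl hydroxylases are encoded by 3 Plod genes, of which Plod1 (chromosome 4, 147909753 to 147936767, minus strand) acts on lysines of the triple helix. It measured 87.0, 83.4 and 83.5 CPM in controls and 83.9, 87.4 and 104.4 CPM in deletion libraries. Deletion 221 stood above the rest and the other 5 lay within 83.4 to 87.4 CPM. Plod1 was the single member with a log2 fold change above 0 (0.12 ± 0.08, edgeR adjusted p = 0.406), and it ran from 0.02 without deletion 221 to 0.18 without deletion 208.

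Plod2 (chromosome 9, 92542223 to 92608428, plus strand) hydroxylates the lysines of the telopeptides, the short ends from which bone-type crosslinks form. It was at 148.4, 159.8 and 148.8 CPM in controls and 152.4, 154.1 and 144.7 CPM in deletion libraries. The log2 fold change was -0.02 with a 95% interval of -0.13 to 0.10 (edgeR adjusted p = 0.886). Plod3 (chromosome 5, 136987019 to 136996648, plus strand), which also transfers sugars to hydroxylysine, was at 87.9, 86.0 and 87.4 CPM and at 79.9, 82.7 and 92.6 CPM. Its interval was -0.17 to 0.10 around -0.03 (edgeR adjusted p = 0.804). Exons of Znhit1 on the opposite strand cover 529 bases (11.7%) of the Plod3 exons, and Gm38391 covers 346 bases of Plod2. Without a known strand setting their reads cannot be separated.

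Within the family, Plod2 was the most abundant per kilobase and made up 46.0%, 48.6% and 46.6% of lysyl hydroxylase transcripts in controls and 48.4%, 47.8% and 42.8% in deletion libraries. The exact permutation p was 0.8. Plod1 held 20.8% ± 0.6 and 22.5% ± 1.8, and Plod3 32.1% ± 0.8 and 31.2% ± 1.3 (SD).

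Serpinh1 (chromosome 7, 99345376 to 99353239, minus strand) binds the folded triple helix and is known as a chaperone specific to collagen. It was the most abundant member, at 1660, 1756 and 1687 CPM in controls and 1454, 1499 and 1694 CPM in deletion libraries. Deletion 208 and 211 lay below all controls, and 221 lay among them. The log2 fold change was -0.14 ± 0.07 (edgeR adjusted p = 0.267). It was -0.20 without deletion 221 and -0.09 without deletion 208 (edgeR adjusted p = 0.0562 and 0.610).

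Crtap (chromosome 9, 114375134 to 114390675, minus strand) encodes the scaffold of the complex that 3-hydroxylates a single proline of collagen I. It was at 110.0, 107.7 and 103.5 CPM in controls and 96.8, 101.3 and 99.2 CPM in deletion libraries, so the groups did not overlap and differed by -0.11 ± 0.05 (log2; edgeR adjusted p = 0.199). Fkbp10 (chromosome 11, 100415697 to 100424824, plus strand) had the smallest p of the 10. It was at 198.4, 207.8 and 188.0 CPM in controls and 157.7, 170.5 and 179.8 CPM in deletion libraries, a difference of -0.23 ± 0.06 in log2 CPM (edgeR adjusted p = 0.0520). All deletion libraries were below all controls. It passed without control 220 and without deletion 221 (-0.26 and -0.27, edgeR adjusted p = 0.0440 and 0.0178), was -0.18 without deletion 208 (edgeR adjusted p = 0.202), and passed by the DESeq2 Wald test (adjusted p = 0.0142), and with sex as a covariate it was -0.15 (edgeR adjusted p = 0.464). Its exons share 193 bases with Nt5c3b on the opposite strand.

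Fkbp10 lies head to head with P3h4, another subunit of a collagen-modifying complex, with 861 bases between the 2 genes on chromosome 11. P3h4 fell by 0.40 ± 0.09 on the log2 scale (edgeR adjusted p = 0.0238), from 82.4, 73.8 and 65.8 CPM to 50.9, 60.1 and 57.4 CPM. It did not pass without 212, 213, 208 or 221 (values from -0.48 to -0.31 over the 6 refits, edgeR adjusted p up to 0.104). With sex as a covariate it was -0.23.

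**Figure D2:**
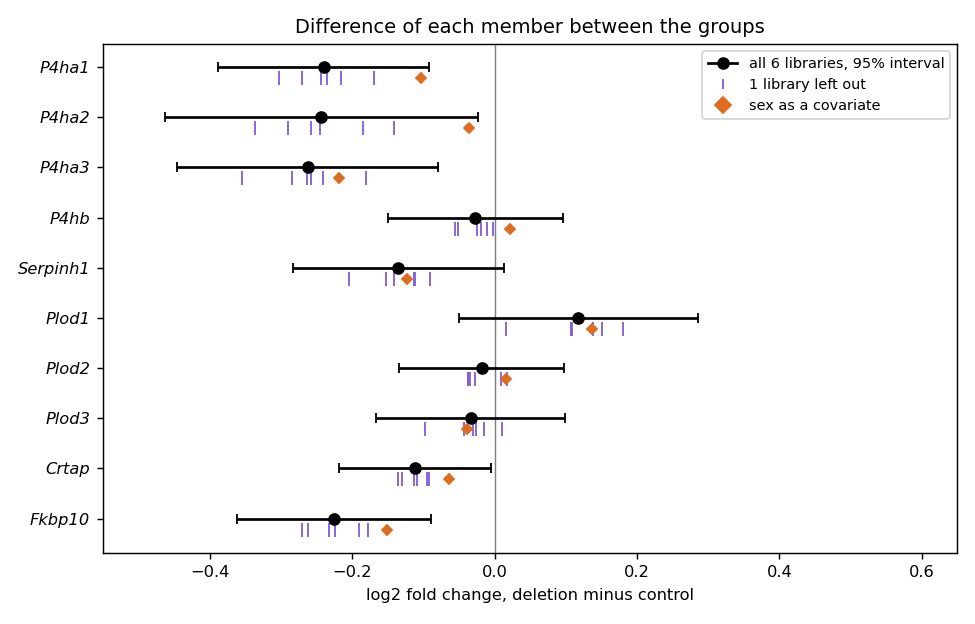
Log2 fold change (deletion minus control) of each member. Black points and bars are the value and 95% interval from all 6 libraries, purple ticks the values with 1 library left out and orange diamonds those with sex as a covariate. P4ha2 moves from -0.24 to -0.04 with the covariate, and P4ha3 from -0.26 to -0.22.

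With sex as a covariate, controls 212 and 213 carry the sex term alone, which leaves a contrast of the deletion libraries with control 220. Under it none of the 10 passed and the lowest edgeR adjusted p among them was 0.451. Sex and the other ways in which control 220 departs from the other controls cannot be told apart in these 6 libraries. On the second principal component of log2 CPM over tested genes, control 220 (-30.0) and deletion 221 (-31.8) lay together, apart from the other 4 libraries (5.43 to 22.4). Among single libraries left out, only these 2 gave passing values for any of the 10 genes, and what they share was not tested.

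Levels can be compared between genes only per length. In RPKM (CPM per kilobase of the union of annotated exons), the order in controls was Serpinh1 at 696 ± 20.3, P4hb at 302 ± 9.0, Fkbp10 at 67.5 ± 3.4, Crtap at 60.4 ± 1.9, P4ha1 at 32.1 ± 3.0, Plod2 at 28.2 ± 1.2, Plod3 at 19.3 ± 0.2, P4ha3 at 16.1 ± 0.5, P4ha2 at 15.2 ± 2.0 and Plod1 at 12.5 ± 0.3 (SD). P4ha1 and Plod2 overlapped between libraries, as did P4ha3 and P4ha2, and the other neighbours in that order were apart. In the deletion libraries Fkbp10 and Crtap also overlapped (57.7 ± 3.8 and 55.9 ± 1.3 RPKM), Plod2 and P4ha1 overlapped, and Plod1, P4ha3 and P4ha2 could not be ordered. With the longest transcript as length, Plod2 in controls was at 41.6 RPKM, above P4ha1 at 32.7, and P4ha2 was at 30.9.

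Collagen I, the main client of these proteins, was read in the same libraries. Col1a2, which encodes a chain of collagen I, fell from 3521, 3628 and 2819 CPM to 2429, 2716 and 2607 CPM (-0.36 in log2, edgeR adjusted p = 0.0417). Of the 6 refits with 1 library left out it passed in 1, without control 220 (range -0.47 to -0.30, edgeR adjusted p up to 0.176), and it was -0.13 with sex as a covariate (edgeR adjusted p = 0.507). Col1a1 was at 4349, 4589 and 3295 CPM and at 2450, 2941 and 3080 CPM, without passing in the full comparison (-0.53, edgeR adjusted p = 0.0713). It passed without control 220 (-0.66, edgeR adjusted p = 0.00407) and was -0.22 with sex as a covariate. Which of the 2 genes passed changed with the tool. By limma voom Col1a1 passed (adjusted p = 0.0409) and Col1a2 did not (adjusted p = 0.0516). With robust=FALSE the edgeR adjusted p was 0.0391 for Col1a1 and 0.0557 for Col1a2. Both passed by the DESeq2 Wald test (adjusted p = 0.0226 and 0.000939). In both genes control 220 was the lowest control. Osteoblast markers, given above, were lower in the same deletion libraries, and their part in the collagen I values was not tested.

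Per collagen I transcript (the mean RPKM of Col1a1 and Col1a2), all 10 members had higher means in the deletion libraries, by 1.14 to 1.49 times. Collagen I itself averaged 444 ± 70.1 RPKM in controls and 319 ± 30.2 RPKM in deletion libraries (SD), or 0.718 times. Any gene that fell by less than that is higher on this scale, so a higher ratio need not reflect a change of the member. Serpinh1 stood at 144%, 145% and 189% of collagen I in controls and 209%, 184% and 204% in deletion libraries, which overlap at control 220 (exact permutation p = 0.2). These percentages depend on the gene models, since the Col1a2 exons measured 12426 bases in union and 5348 in the longest transcript. For Serpinh1 the deletion minus control difference was 26.2 percentage points with the longest transcript as length and 39.8 with the union. The exact permutation p was 0.2 for both. Plod1 stood at 2.72%, 2.49% and 3.39% in controls and 4.36%, 3.87% and 4.54% in deletion libraries, the largest ratio of means. P4hb was at 64.5%, 62.3% and 80.1% and at 101%, 88.5% and 90.7%. In 6 of the 10 the groups did not overlap, each at the smallest possible exact permutation p of 0.1 and an adjusted p of 0.225 over 18 comparisons. The groups did not overlap in collagen I itself either, which was lower in every deletion library. The share of all tested genes without overlap after the same division was not computed, so this count has no background beside it. The 10 ratios share 1 denominator and are not independent, and all but that of Serpinh1 were added after the values were seen.

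**Figure D3:**
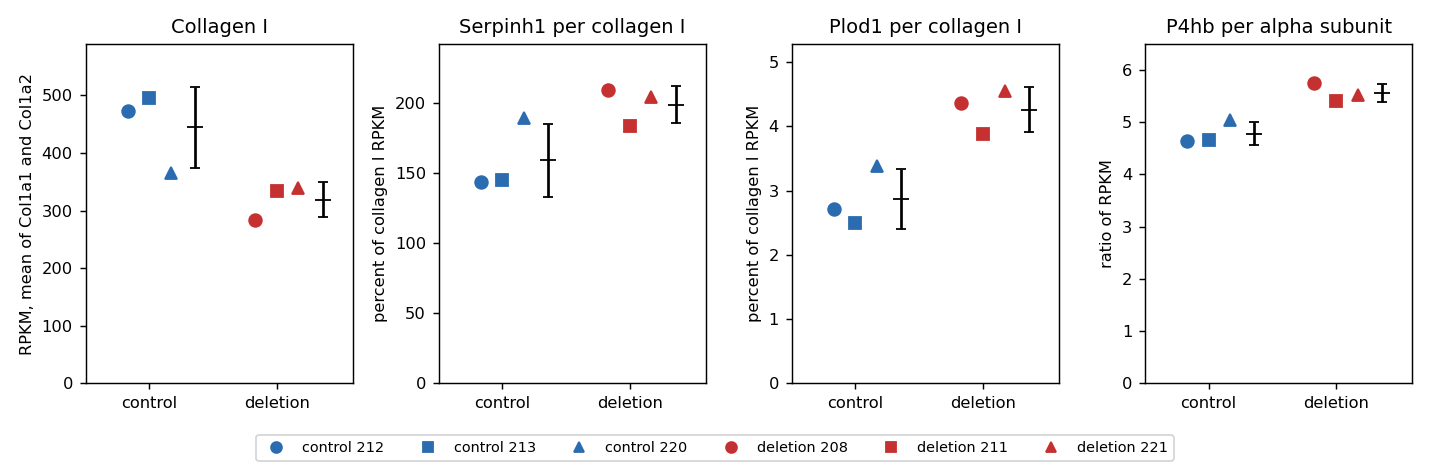
Collagen I level (mean RPKM of Col1a1 and Col1a2), Serpinh1 and Plod1 as a percentage of it, and P4hb per alpha subunit transcript. Each point is a library (controls blue, deletion red) with mean and SD as bars. Control 220 lies nearest to the deletion libraries in all 4 panels, and only the Serpinh1 panel has overlapping groups.

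Among 26 tested collagen chain genes, the profile over the 6 libraries closest to each member was sought by the root mean square difference of centred log2 CPM. For Fkbp10 and Serpinh1 it was Col4a2, a basement membrane chain, at 0.031 and 0.036. Crtap and P4ha1 were closest to Col6a1 (0.044 and 0.068), P4ha3 to Col4a2 (0.069) and P4ha2 to Col1a2 (0.099). The next chains were almost as close, as for P4ha1 (Col11a1, 0.070), Crtap (Col3a1, 0.048) and P4ha2 (Col3a1, 0.104), so the choice of chain is not firm. P4hb, Plod2 and Plod3 were each closest to Col4a1 (0.072, 0.093 and 0.076) and Plod1 to Col18a1 (0.134), but these 4 varied less about their own mean (0.042, 0.046, 0.067 and 0.114) than they differed from the closest chain. Col4a2 and Col4a1 did not pass (log2 fold changes -0.17 and -0.13), and Col6a1 fell by 0.19 (edgeR adjusted p = 0.0482) but passed in 1 of the 6 refits with a library left out, without deletion 221 (edgeR adjusted p up to 0.203 in the others).

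The steps around these enzymes were read from fixed lists. In the prolyl 3-hydroxylation list, 2 of 5 fell and 0 rose, with a median log2 fold change of -0.20. P3h3, a prolyl 3-hydroxylase family member known to act together with P3h4, fell from 197 ± 9.6 to 154 ± 9.0 CPM (SD). The difference was -0.36 ± 0.06 in log2 (edgeR adjusted p = 0.00596). P3h3 passed with any 1 library left out, and with sex as a covariate it was -0.28 without passing. P3h1, the catalytic partner of Crtap, and Ppib, the cyclophilin of that complex, had log2 fold changes of -0.20 and -0.12 (edgeR adjusted p = 0.111 and 0.248).

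Of 12 genes for collagen glycosylation and further factors of the rough endoplasmic reticulum, 4 fell and 0 rose (median -0.22). Fkbp11, a prolyl isomerase of secretory cells, fell 1.74-fold to 6.79 ± 0.96 CPM (edgeR adjusted p = 0.00556). Creb3l1, the transcription factor OASIS that drives collagen I and secretory genes in osteoblasts, fell 1.62-fold (edgeR adjusted p = 0.0113, and up to 0.0612 without deletion 211). Sparc, a collagen-binding matrix protein, fell from 1146 ± 127 to 902 ± 58 CPM, and Fkbp7, a relative of Fkbp10, from 34.2 ± 2.8 to 27.7 ± 1.7 CPM (edgeR adjusted p = 0.0320 and 0.0459). Sparc passed with 1 of the 6 libraries left out, control 220, and Fkbp7 with 220 or 221 left out (log2 fold changes -0.43 to -0.29 and -0.37 to -0.25 over the 6 refits). Osteoblast markers were lower in the same libraries, and their part in these values was not tested. With sex as a covariate Fkbp11 was at -0.69, Creb3l1 at -0.62, Sparc at -0.15 and Fkbp7 at -0.17 in log2, and none of them passed.

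Procollagen processing, the removal of propeptides outside the cell, had 4 of 7 genes lower and 0 higher (median -0.41). Adamts2, the procollagen N-proteinase, fell from 95.4, 101.7 and 94.5 CPM to 69.7, 73.4 and 71.7 CPM (-0.44 ± 0.05, edgeR adjusted p = 0.00111). It passed with any 1 library left out and with sex as a covariate (edgeR adjusted p = 0.0463). Its relative Adamts14 (-0.41), the C-proteinase enhancer Pcolce (-0.43) and Pcolce2 (-0.86) also fell (edgeR adjusted p = 0.0312, 0.0196 and 0.0292). Each of these 3 lost its call with some libraries left out, including control 213 and deletion 208 (highest edgeR adjusted p = 0.144, 0.0955 and 0.140), and none of the 3 passed with the sex covariate. Bmp1, the C-proteinase itself, was at -0.05 (edgeR adjusted p = 0.675).

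Of 26 tested collagen chains, 7 fell and 2 rose (median -0.18). Col12a1, a fibril-associated chain, fell 1.41-fold, Col5a2, of the collagen V that starts fibrils, 1.25-fold and Col16a1 1.72-fold (edgeR adjusted p = 0.00363, 0.00577 and 0.0183). The cartilage chains Col2a1 and Col9a3 rose 1.90-fold and 2.99-fold (edgeR adjusted p = 0.0141 and 0.0321), in the libraries whose chondrocyte markers were higher. Col12a1 passed with any 1 library left out, Col5a2 did not without 213 (edgeR adjusted p = 0.0502), and Col2a1 and Col16a1 did not without 213, 208 or 221 (edgeR adjusted p up to 0.0769 and 0.0867). Col9a3 passed in 2 of the 6, without 212 or 220 (edgeR adjusted p up to 0.138 in the others). With sex as a covariate Col12a1 was at -0.48, Col5a2 at -0.32 and Col16a1 at -0.49 in log2 without passing. Col2a1 was at 1.21 and Col9a3 at 2.06 under that covariate. Procollagen export had 0 of 12 called and a median of -0.05, with 3 at an unadjusted p under 0.05, 0 by limma voom and 1 by the DESeq2 Wald test (Sec24d). Sec24d and Sec23a, COPII coat subunits for large cargo, had the smallest p (-0.20 and -0.14, edgeR adjusted p = 0.0645 and 0.126).

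**Figure D4:**
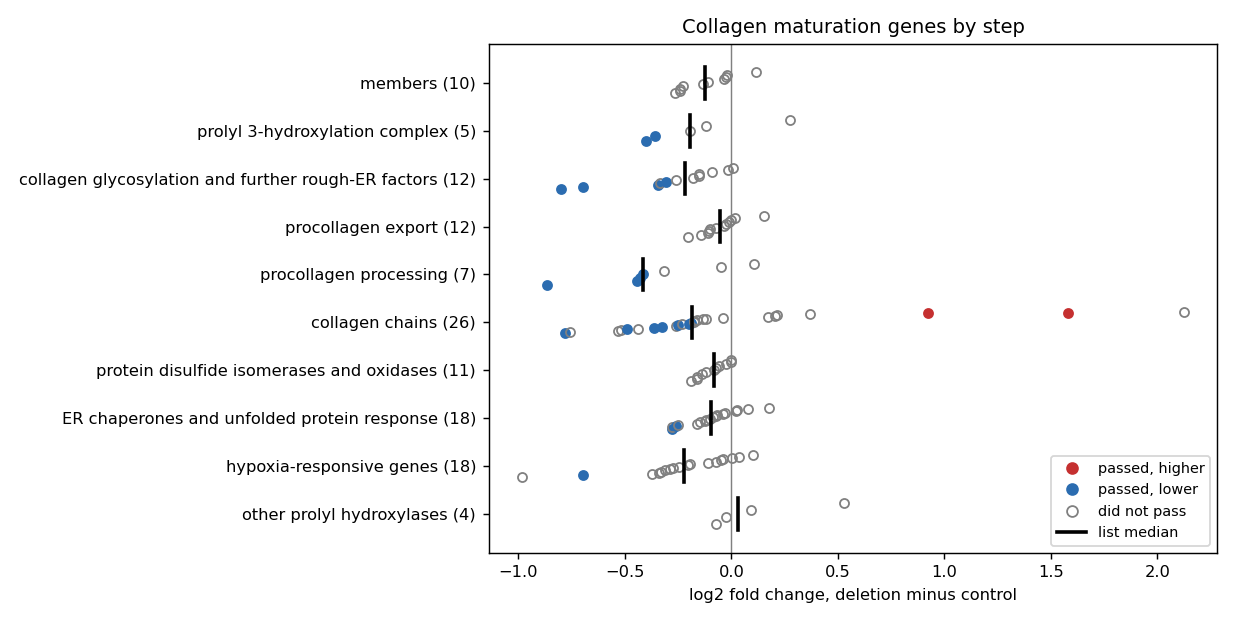
Log2 fold change (deletion minus control) of each tested gene by list, with the number tested in brackets. Genes that passed the test are filled (red higher, blue lower) and the others open, with the list median as a black bar. The processing list has the lowest median (-0.41), and the 10 members lie between -0.26 and 0.12 with none passing.

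Over the 9 lists together, 20 of 113 tested genes fell and 2 rose (19.5%, against 7.01% of all tested genes). Without control 213, deletion 208 or deletion 211, the share of all tested genes called was 1.81%, 2.77% or 3.59%. In those 3 refits, in that order, the count of 22 was 6, 7 and 12 (5.3%, 6.2% and 10.6% of the listed genes). It was 4 with sex as a covariate, and these were Adamts2, Col2a1, Col9a3 and the hypoxia-responsive gene Ndrg1. The lists were chosen with earlier results of these data known, and no test of a list was made.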

How the data were processed

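RNA was measured in 3 control and 3 deletion libraries. The tools and build listed, per the submitters' processing notes, are STAR 2.4.1d, CASAVA 1.8.2, Partek and mm10. Which program counted reads, with which annotation and strand setting, is, in the sources used here, not given. The authors deposited 1 table of estimated counts (expected counts) per gene symbol, not normalized, in which 23.0% to 23.8% of values were not whole. The columns carry a group and a number that no label gives, so they were assigned to groups only, and 0 columns were left without a group.

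Values were rounded, filtered with filterByExpr (minimum count 10, minimum total 15), TMM-scaled and tested over all 19284 genes with edgeR 4.0.16 (glmQLFit with robust=TRUE, glmQLFTest, no covariates) in R 4.3.3, with Benjamini-Hochberg adjustment. SE is the absolute log2 fold change over sqrt(F), and intervals are at 95%. RPKM, ratios and shares used GENCODE M21 exon lengths (GRCm38, the assembly of mm10), with two-sided exact permutation tests. In data simulated from the deletion against control comparison (19020 genes), 68% of 1.5-fold and 88% of 2-fold changes were recovered, with 17 false calls in all. Each simulated size was given to 50 genes, drawn only from those of higher mean count, so recovery at low counts was not measured. The largest fold among the 10 genes was 1.20, below the sizes simulated.

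The members, lists and alternatives were chosen with earlier results of these data known. Companions were named by p: per list, at most 4 that passed, or otherwise the lowest 2, plus the collagen chain closest to each member. P3h1, Ppib, Bmp1, Hspa5, Col1a1 and Col9a3 fall outside it and were picked with their values known, as were all ratios but that of Serpinh1. Alternatives were DESeq2 size factors, upper-quartile factors, the DESeq2 1.42.0 Wald test, limma 3.58.1 voom, no filter, a CPM filter, robust=FALSE, leaving out erythroid and muscle genes, sex (Xist above 100 CPM) as a covariate, and leaving out each library. Promoters are from RefSeq, and 8 of 10 members matched.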

Additional observations from a re-analysis of the deposited data

How the results depend on the processing

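The count of members past the threshold was 0 in the full comparison and under DESeq2 size factors, limma voom, robust=FALSE, the sex covariate and without erythroid and muscle genes. It was 2 with upper-quartile factors, 3 with the DESeq2 Wald test, 3 without the low-count filter, 1 with the CPM filter, and 0 to 3 with 1 library left out. The share of all tested genes called was 7.3% with upper-quartile factors, 6.29% without the low-count filter and 8.17% with the CPM filter. That for the DESeq2 Wald test is given above. Without control 220, 3 members and 7.04% of all tested genes were called, and without deletion 221, 2 members and 9.45%. The remaining refits with 1 library left out called 0 members and 1.81% to 4.78% of tested genes. Of 150 member values over 15 settings, 131 kept direction and side of the threshold, 14 newly passed and 5 changed sign, none of which passed in either setting. The sign changes were P4hb (0.0223) and Plod2 (0.0158) with the sex covariate, and among values with 1 library left out Plod2 (-0.0378 to 0.0169, above 0 without 213 or 221) and Plod3 (-0.0980 to 0.0101, above 0 without 208). All genes called numbered 1352, and 2125 with the DESeq2 Wald test, 129 with the sex covariate and 356 to 1872 with 1 library left out. Calls in the companion lists numbered 22, and 40 with the DESeq2 Wald test, 4 with the sex covariate and 6 to 28 with 1 library left out. Of 510 values of the 34 named companions, 411 were alike, 84 lost the call, 13 gained it and 2 changed sign, both of Col18a1 (-0.175 to 0.0557 with 1 library left out, above 0 without 213 or 208). The causes were not tested.

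Without length scaling, the deletion minus control difference of Serpinh1 per 100 collagen I was 10.7 (39.8 with it) and that of P4hb per alpha subunit 0.50 (0.78 with it). Dropping the lengths changes the unit of the whole ratio, so these sizes cannot be compared. The exact permutation p was the same with and without length scaling (0.2 for Serpinh1 and 0.1 for P4hb). Under longest transcript lengths the differences were 26.2 for Serpinh1 and 0.58 for P4hb, at the same exact permutation p. With 1 library left out the differences ranged from -0.527 to 1.24 for the P4ha2 share (percentage points), -1.77 to 1.07 for the Plod2 share (percentage points), 31.9 to 54.8 for Serpinh1 per 100 collagen I and 0.683 to 0.905 for P4hb per alpha subunit. No paired analysis was possible because the columns carry no replicate number from the labels. A setting that leaves out 1 library leaves 2 in its group. The lowest mean among these genes was 42.0 CPM (P4ha3, deletion), and the number of libraries limits the precision.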

Other observations

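Neighbouring secretory and oxygen-sensing genes were also read. Of 11 protein disulfide isomerases and oxidases, relatives and partners of P4hb, 0 were called by edgeR (4 at an unadjusted p under 0.05, by limma voom 0 and by the DESeq2 Wald test 2, Ero1l and Txndc5). All 11 had log2 fold changes below 0, with a median of -0.08. Ero1l, the oxidase that recharges protein disulfide isomerase, and Txndc5 had the smallest p (-0.19 and -0.16, edgeR adjusted p = 0.0720 and 0.113). Of 18 ER chaperones and unfolded protein response genes, 2 fell and 0 rose (median -0.09). These were Dnajb11 and Dnajc3, cochaperones of BiP, at -0.26 and -0.28 (edgeR adjusted p = 0.0150 and 0.0395). Dnajb11 did not pass without 213 or 208 and Dnajc3 passed with only control 220 left out among the single libraries (highest edgeR adjusted p = 0.0997 and 0.184). BiP itself, Hspa5, averaged 839 CPM (control) and 885 CPM (deletion) (edgeR adjusted p = 0.567).

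Of 18 hypoxia-responsive genes, 1 fell and 0 rose by edgeR (median -0.22), where 7.01% of all tested genes were called. At an unadjusted p under 0.05, 6 were lower and 0 higher, against 11.3% of tested genes lower. The DESeq2 Wald test called 4 lower (Hk2, Mxi1, Ndrg1 and Slc2a1), against 11% of all genes, and limma voom called 1. Ndrg1 fell from 49.8, 49.9 and 41.8 CPM to 29.5, 29.7 and 28.2 CPM (edgeR adjusted p = 0.00100), and passed with any 1 library left out and with sex as a covariate (edgeR adjusted p = 0.0261). Of 4 further prolyl hydroxylases, 0 were called by edgeR or limma voom, and 1 both by the DESeq2 Wald test and at an unadjusted p under 0.05: P4htm, a transmembrane prolyl 4-hydroxylase, at 5.42, 4.89 and 4.73 CPM in controls and 6.93, 6.42 and 8.37 CPM in deletion libraries (log2 fold change 0.53, edgeR adjusted p = 0.0540), with all deletion libraries above all controls. Egln2 was at 0.09 (edgeR adjusted p = 0.336).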
